A study of Mus musculus with 6 samples.

Results

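The mRNA level of 7 genes of the cholesterol pathway was followed in the cerebral cortex of young and old mice. They were Hmgcs1, Idi1, Fdft1, Sqle, Dhcr7, Srebf2 and Insig1, chosen by symbol among 55421 genes in the files, and each symbol was found once. RNA was sequenced from 3 male C57BL/6J mice aged 6 months (mice 10, 11 and 17) and 3 aged 24 months (mice 2, 4 and 5), with 1 library per mouse. All mice were WT (no altered gene is named), received the same standard diet and were anesthetized with isoflurane before cervical dislocation. Each library was made from 10 ng of total RNA of frozen, powdered cortex and read in single reads of 75 bp. The genes encode enzymes and regulators of synthesis, and no receptor for cholesterol uptake is among them. Uptake genes were therefore taken from a wider pathway list.

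Cholesterol is built from acetyl-CoA through mevalonate, isoprenoid diphosphates, squalene and lanosterol. The brain makes nearly all of its own cholesterol, because plasma lipoproteins do not cross the blood-brain barrier, and most of it lies in myelin. When sterols run low in the endoplasmic reticulum, the precursor encoded by Srebf2 is carried to the Golgi, cut, and enters the nucleus, where it activates most genes of the pathway through sterol regulatory elements, usually beside CCAAT and GC boxes.

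The bases before the RefSeq start sites (GRCm38.p6) are shown for 4 of the 7 genes, to set the promoter of the most abundant enzyme beside that of a less abundant one and those of both regulators. Only bases outside annotated exons are printed, apart from 30 bases for Idi1. All are on the plus strand, 5′ to 3′. Capitals mark matches on either strand to the sterol regulatory element core TCACNCCAC or its shorter form TCACNCCA, the CCAAT box and the GC box GGGCGG, which on the other strand read as their reverse complements. No bases lie in matches of different motifs, other than the shorter core within the longer one.
Hmgcs1, chr13:119690101-119690350: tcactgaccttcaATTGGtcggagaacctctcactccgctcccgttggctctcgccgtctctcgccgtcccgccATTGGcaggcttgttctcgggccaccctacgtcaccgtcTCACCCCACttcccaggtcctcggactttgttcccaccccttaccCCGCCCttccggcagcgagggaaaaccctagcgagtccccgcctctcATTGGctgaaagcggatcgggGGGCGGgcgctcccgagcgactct
Idi1, chr13:8885556-8885585: agctgATTGGcgagcccgggcatggtccaa
Srebf2, chr15:82147019-82147180: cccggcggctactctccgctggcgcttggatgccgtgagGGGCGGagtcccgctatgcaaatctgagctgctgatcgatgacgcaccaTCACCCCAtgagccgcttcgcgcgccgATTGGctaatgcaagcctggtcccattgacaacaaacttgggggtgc
Insig1, chr5:28071162-28071362: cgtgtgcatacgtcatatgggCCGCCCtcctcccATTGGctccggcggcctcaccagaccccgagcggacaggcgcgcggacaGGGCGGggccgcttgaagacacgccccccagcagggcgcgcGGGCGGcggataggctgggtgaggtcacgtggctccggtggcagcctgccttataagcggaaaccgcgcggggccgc

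The longer core was found once before Hmgcs1, at base -137 from the start site, and in 1.05% of all 32851 windows of 250 bases. Its shorter form, searched after the sequences had been seen, was also found before Srebf2 at base -162, and in 3.67% of all windows. Of the 7 genes, 5 were searched, and Sqle and Fdft1 were not. All 5 held a CCAAT box in at least 1 window, against 33.8% of all windows, and 3 of them (Hmgcs1, Idi1 and Dhcr7) held at least 2 in 1 window, against 10.1%. These shares are per window, whereas a gene with several windows was counted if any of them matched, which favours a match. Dhcr7 has 3 listed start sites, and both of its boxes lie before the one farthest downstream. Over the pathway list, 15 of the 16 enzyme genes with a window held a CCAAT box, and 8 of the 15 genes of control and uptake did. The GC box was held by all 5 searched genes, by 15 of these 16 and by 10 of these 15, against 32.7% of all windows. The longer core was held by 1 of these 16 and 0 of these 15 genes, and its shorter form by 2 and 1. A match describes the letters of the window and does not show that a factor binds there.

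**Figure D1:**
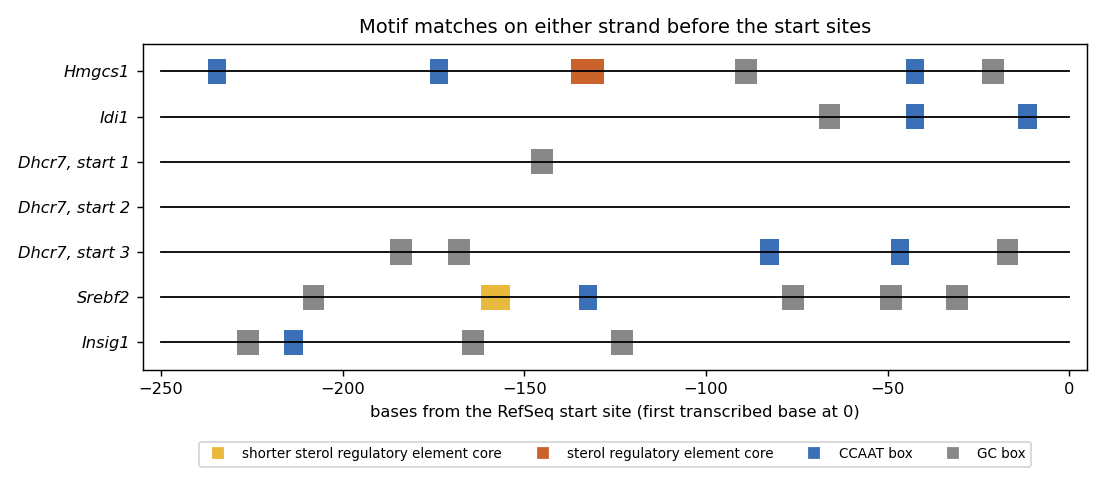
Matches to the sterol regulatory element core (orange), its shorter form (yellow), the CCAAT box (blue) and the GC box (grey) in the 250 bases before each RefSeq start site of 5 of the 7 genes, with the distance from the start site in bases on the x axis. Hmgcs1 holds 3 CCAAT boxes and the longer core, whereas the second start site of Dhcr7 holds no match.

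The libraries held 29495379 to 36494240 counts, and at least 1 count on 33974 to 35651 genes at 6 months and on 40208 to 43561 genes at 24 months. Counts relative to library size (CPM) were scaled between libraries with TMM, a factor that assumes that most genes do not differ. TMM factors were 0.921 to 0.946 at 6 months and at least 1.04 at 24 months. With these factors, the median log2 fold change of 24 against 6 months was -0.14 over the 15761 genes of at least 1 mean CPM, and with library totals alone it was 0.05. Genes fitted just below 0 with TMM, such as Fdft1 and Insig1, thus lay above 0 with library totals. Differences of the 7 genes are therefore also given relative to that median, which took the median of the 7 genes to -0.10 with either scaling. Markers of neurons, astrocytes, oligodendrocytes, microglia and endothelial cells were read in every library, and none was at 0.

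Levels between genes were compared in TPM, the share of a library after division by gene length. Hmgcs1 was the highest of the 7 genes, with a mean of 321.8 TPM over the 6 mice. Srebf2 (114.3 TPM), Sqle (101.0 TPM), Fdft1 (97.7 TPM) and Insig1 (91.3 TPM) followed. Dhcr7 (22.3 TPM) and Idi1 (9.11 TPM) were the lowest. Hmgcs1 lay above Srebf2, Insig1 above Dhcr7 and Dhcr7 above Idi1 with no overlap among the mice. Srebf2 lay above Sqle in each of the 6 mice although their ranges overlapped, whereas Sqle and Fdft1, and Fdft1 and Insig1, kept their order in only 4 of 6 mice, so these neighbours did not differ beyond the spread.

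The question put to the genes was whether their mRNA level differs between the young adult and the old adult cortex. Hmgcs1, Idi1 and Sqle were lower in every 24-month mouse than in every 6-month mouse, with mean TPM lower by 16.1% to 25.8% of the level at 6 months. Of the genes of at least 1 mean CPM, 17.3% were likewise lower in TPM in every 24-month mouse. Dhcr7, Srebf2 and Fdft1 lay lower by 3.34% to 8.86% with overlapping mice, and the mean TPM of Insig1 differed by 1.13%. In edgeR's quasi-likelihood test, 0 of the 7 genes passed the false discovery rate (FDR) of 1% used in the study, at which 0 of the 32905 genes tested passed (0%). That test gave 10097 genes with an unadjusted p under 0.05, and at 1% FDR the likelihood ratio test called 1703, the exact test 1122 and DESeq2 227, none of which was among the 7 genes. At an adjusted p under 0.10, 3 of the 7 genes were lower at 24 months and 0 higher. Of all genes tested, 8.33% were lower and 10.0% higher at that threshold, and of the genes of at least 1 mean CPM, 17.3% were lower and 2.43% higher. At an unadjusted p under 0.05, 5 of the 7 genes were lower, against 13.1% of all genes tested and 26.9% of those of at least 1 mean CPM.

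The first of the enzymes, Hmgcs1, encodes the cytosolic synthase that joins acetyl-CoA and acetoacetyl-CoA to HMG-CoA. Its gene (ENSMUSG00000093930.2) lies on chromosome 13 from 119690379 to 119708260 of GRCm38 and has 4594 exonic bases. Its level was 363.9, 386.4 and 323.1 TPM in the 6-month mice 10, 11 and 17, and 279.6, 282.1 and 295.4 TPM in the 24-month mice 2, 4 and 5. All mice of 24 months lay below all mice of 6 months, and they were closely grouped. The mean was 357.8 ± 32.1 TPM at 6 months and 285.7 ± 8.51 TPM at 24 months (SD, n = 3 mice each). Log2 fold change between the ages was -0.44 (SE 0.093, edgeR adjusted p = 0.0518), or -0.29 relative to the median of expressed genes. Of the genes of at least 1 mean CPM, 92.1% had a higher fold change.

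Idi1 encodes the isomerase that turns isopentenyl diphosphate into dimethylallyl diphosphate, the starter of isoprenoid chains. The gene (ENSMUSG00000058258.14, chromosome 13 from 8885501 to 8892451, 3505 exonic bases) had 11.2, 11.2 and 8.99 TPM at 6 months and 6.77, 7.88 and 8.65 TPM in the 24-month mice 2, 4 and 5. The groups did not overlap, but the 6-month mouse 17 lay only just above the 24-month mouse 5. Counts were 293 to 384 at 6 months and 202 to 271 at 24 months, the fewest of the 7 genes. For 24 against 6 months it had a log2 fold change of -0.54 (SE 0.15, edgeR adjusted p = 0.0633), the lowest of the 7 genes, and -0.40 relative to the median of expressed genes. Its mean was 10.5 ± 1.27 TPM at 6 months and 7.76 ± 0.945 TPM at 24 months (SD, n = 3 mice each), and 96.9% of the genes of at least 1 mean CPM had a higher fold change. The 5 processed copies named after Idi1 held 0 to 5 counts each per library.

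Among the sterol enzymes, Fdft1 encodes squalene synthase, which commits farnesyl diphosphate to sterols, and Sqle encodes squalene epoxidase, the first oxygen-dependent step. Sqle (ENSMUSG00000022351.14, chromosome 15 from 59315077 to 59331192, 5546 exonic bases) had 109.8, 121.8 and 97.7 TPM at 6 months and 95.6, 89.2 and 91.6 TPM in the mice 2, 4 and 5. The groups did not overlap, with young mouse 17 just above old mouse 2. Its log2 fold change was -0.37 (SE 0.10, edgeR adjusted p = 0.0624), or -0.22 relative to expressed genes. The mean went from 109.8 ± 12.1 TPM at 6 months to 92.1 ± 3.28 TPM at 24 months (SD, n = 3 mice each), and 85.8% of the expressed genes had a higher fold change.

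Fdft1, the gene just before Sqle in the pathway (ENSMUSG00000021273.11, chromosome 14 from 63145150 to 63179578, minus strand), had 100.2, 108.2 and 89.7 TPM at 6 months and 98.9, 104.2 and 85.1 TPM at 24 months. The ranges of both ages overlapped over most of their length. The log2 fold change of -0.16 (SE 0.11, edgeR adjusted p = 0.334) was -0.02 relative to expressed genes. Of its 4227 exonic bases, 774 overlap exons of Ctsb on the opposite strand. Ctsb, which encodes the abundant lysosomal protease cathepsin B, held 31691 to 39709 counts per library, against 3132 to 4345 for Fdft1. The counting was not stated to use strand, so reads from the overlap cannot be told apart and the value of Fdft1 is uncertain. The overlaps of Hmgcs1 and Idi1 are with antisense or uncharacterized genes of at most 40 counts per library.

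Dhcr7 encodes the reductase of the last step to cholesterol from 7-dehydrocholesterol (ENSMUSG00000058454.15, chromosome 7 from 143823145 to 143848410, 5817 exonic bases). It had 23.5, 24.7 and 21.7 TPM at 6 months and 19.8, 21.6 and 22.3 TPM at 24 months. Only the 24-month mouse 5 reached into the range of the 6-month mice. It was fitted lower at 24 months, with a log2 fold change of -0.25 (SE 0.10, edgeR adjusted p = 0.137), or -0.10 relative to expressed genes.

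**Figure D2:**
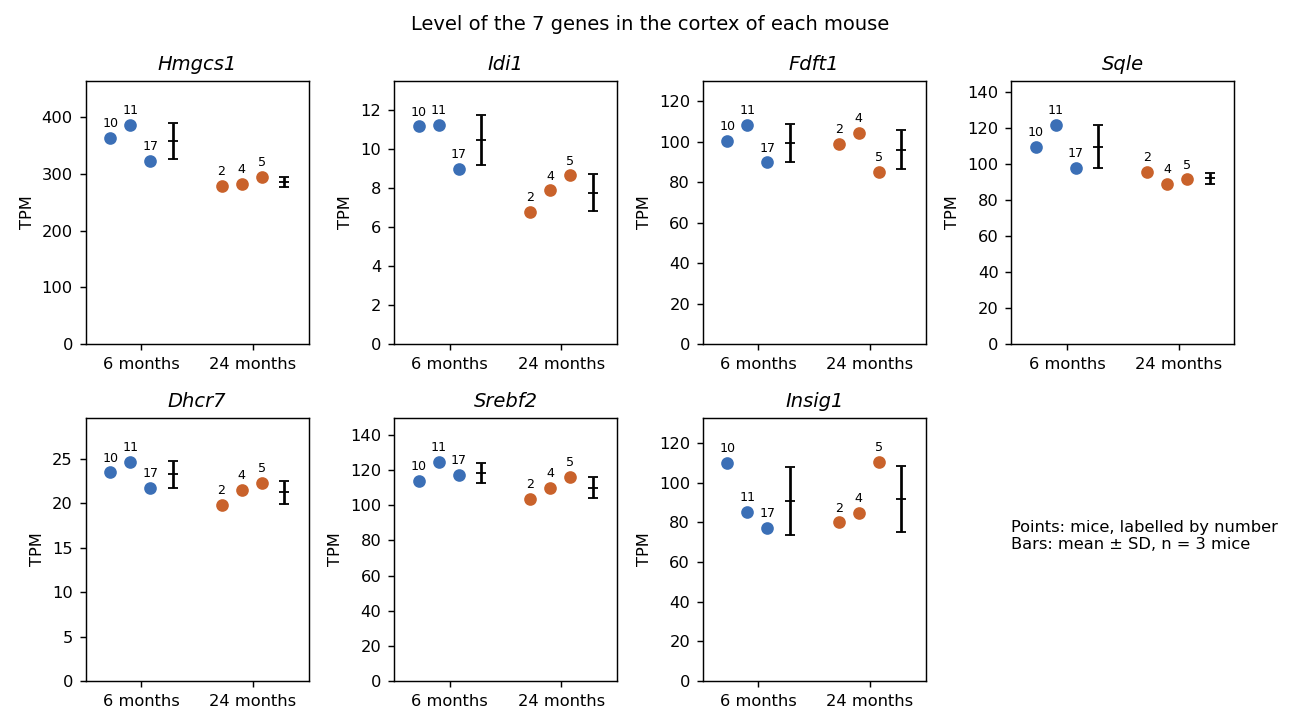
TPM of each of the 7 genes in each mouse (points, labelled with the mouse number, blue for 6 months and orange for 24 months) with the mean and SD of 3 mice in black, on axes that start at 0. All 24-month mice lie below all 6-month mice for Hmgcs1, Idi1 and Sqle, whereas for Insig1 the 6-month mouse 10 and the 24-month mouse 5 lie at 110.0 and 110.6.

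Neither regulator passed at an adjusted p under 0.10. Srebf2 encodes SREBP-2, the transcription factor of the sterol response (ENSMUSG00000022463.8, chromosome 15 from 82147181 to 82205379, 7184 exonic bases). It had 113.7, 124.9 and 117.4 TPM at 6 months and 103.9, 110.0 and 116.1 TPM at 24 months. The old mouse 5 lay above the young mouse 10. Its log2 fold change was -0.22 (SE 0.087, edgeR adjusted p = 0.123), or -0.08 relative to expressed genes. The microRNA gene Mir33, which lies in an intron of Srebf2, shares no exonic bases with it and held 0 or 1 count per library.

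Insig1 encodes a protein that retains the SREBP complex in the endoplasmic reticulum when sterols are plentiful, and it is itself a target of SREBP. The gene (ENSMUSG00000045294.11, chromosome 5 from 28071363 to 28078662, 3093 exonic bases) had 110.0, 85.0 and 77.3 TPM in the 6-month mice 10, 11 and 17 and 79.9, 84.9 and 110.6 TPM in the 24-month mice 2, 4 and 5. In each age 1 mouse was high, and the others lay between 77.3 and 85.0 TPM. The SD was 17.1 TPM at 6 months and 16.5 TPM at 24 months (n = 3 mice each). A log2 fold change of -0.10 (SE 0.16, edgeR adjusted p = 0.703) was fitted. It took the opposite sign, at 0.09, with library totals.

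Across the 7 genes, mice differed within an age as well as between ages. In the 6-month mice 10 and 11, 6 of the 7 genes were above their own mean over the 6 mice, and in mouse 17 this held for 3. At 24 months it held for 1 gene in mice 2 and 4 and for 3 genes in mouse 5. The mean deviation on log2 TPM was 0.15, 0.18 and -0.05 in the 6-month mice 10, 11 and 17, and -0.16, -0.09 and -0.02 in the 24-month mice 2, 4 and 5. Mouse 17 thus lay between mice 4 and 5 on this measure, and the ages overlapped. On TMM-scaled log2 CPM the ages did not overlap, with mean deviations of 0.21, 0.22 and 0.0045 in the mice 10, 11 and 17 and of -0.22, -0.14 and -0.08 in the mice 2, 4 and 5. With that scaling, 32.5% of the single genes of at least 1 mean CPM were lower in all old mice. On log2 TPM, mouse 17 and mouse 5 deviated by 0.02 and -0.11 in Hmgcs1, -0.04 and -0.13 in Sqle, and -0.22 and 0.29 in Insig1. The same values were -0.03 and 0.0075 in Dhcr7 and 0.04 and 0.02 in Srebf2. They were -0.12 and -0.19 in Fdft1 and 0.0045 and -0.05 in Idi1.

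**Figure D3:**
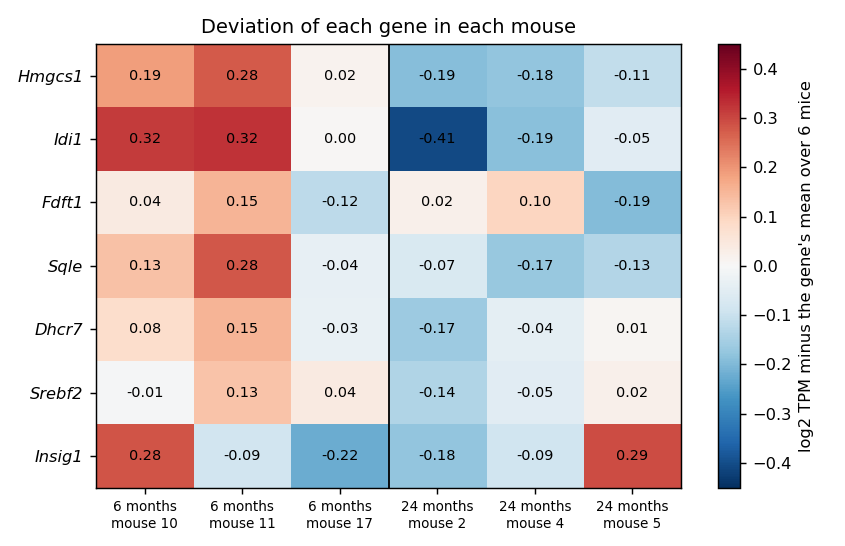
Deviation of each gene (rows) in each mouse (columns) from its mean log2 TPM over the 6 mice, red above and blue below, with the value in each cell. The lowest value is that of Idi1 in the 24-month mouse 2, at -0.41, and the values of Insig1 do not follow those of the enzymes.

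Ratios of TPM within a library, in which no factor between libraries enters, were formed after the data were seen. Hmgcs1 was 3.20, 3.09 and 2.75 times Srebf2 in the 6-month mice 10, 11 and 17, and 2.69, 2.56 and 2.54 times in the 24-month mice 2, 4 and 5. The ratio of Idi1 to Srebf2 was 0.0981, 0.0899 and 0.0766 at 6 months and 0.0652, 0.0716 and 0.0745 at 24 months. Both ratios were lower in all old mice than in all young mice (exact permutation test, two-sided, p = 0.1 for each, the smallest p that 3 mice against 3 allow, and 0.3 after adjustment over the 6 ratios). How many of all genes had such a ratio to Srebf2 was not counted. In TPM itself, 17.3% of the genes of at least 1 mean CPM were lower in all old mice. The ratios of Sqle, Insig1, Dhcr7 and Fdft1 to Srebf2 overlapped between the ages, with exact permutation p-values of 0.2 to 0.7. Relative to Srebf2, the mean level at 24 months was 0.862 times that at 6 months for Hmgcs1 and 0.798 times for Idi1.

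The calls of the 7 genes at an adjusted p under 0.10 depended on the scaling and on the filter for low counts. With filterByExpr or a minimum mean CPM of 1, TMM scaling was kept. The median of expressed genes was then -0.03 and 0.01, in place of -0.14. In TPM, which carries no TMM factor, all mice of 24 months lay below all of 6 months for 3 of the 7 genes and for 17.3% of the genes of at least 1 mean CPM. In TMM-scaled CPM this held for 5 of the 7 genes, with Dhcr7 and Srebf2 added, and for 32.5% of such genes. With library totals, filterByExpr, a minimum mean CPM of 1 or limma on log2 TPM, 0 of the 7 genes were called, although Hmgcs1, Idi1 and Sqle stayed lower in each of these, between -0.43 and -0.17 on the log2 scale. The same count was 0 without the 6-month mouse 10 or 11 or without the 24-month mouse 2 or 4, it was 3 without the 6-month mouse 17, and it was 4 without the 24-month mouse 5, Srebf2 being added at an adjusted p of 0.0789. Under these alternatives and left-out mice, the share of all genes called at an adjusted p under 0.10 was not counted. The median of the 7 genes was -0.25, and relative to expressed genes it lay between -0.16 and -0.06 over all settings.

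**Figure D4:**
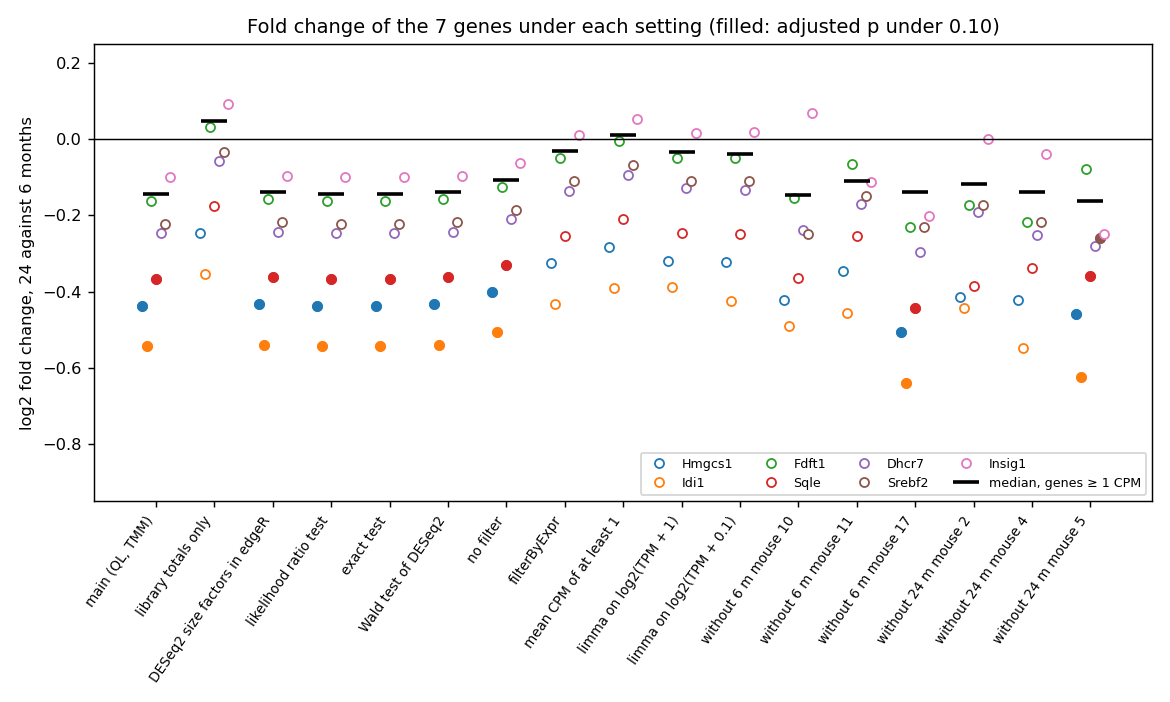
Log2 fold change of 24 against 6 months for each of the 7 genes (colours) under the setting used in the text (main) and each of the alternatives, filled where the adjusted p was under 0.10, with the median of genes of at least 1 mean CPM as a black bar. The order Idi1, Hmgcs1, Sqle from the lowest up holds in the main setting, and the black bar moves from -0.14 to 0.05 with library totals, along with the 7 genes.

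Beside the 7 genes, the pathway list held 34 other genes, all of which were tested. At an adjusted p under 0.10, 11 of the 34 were lower at 24 months and 0 higher, against 8.33% of all genes tested and 17.3% of the genes of at least 1 mean CPM that were lower. Their median log2 fold change was -0.23, or -0.09 relative to expressed genes. Of the 6 other genes of the early steps, 1 was lower at that threshold, beside the same 17.3%. The kinases Mvk (0.0049) and Pmvk (-0.11), the synthase Fdps (-0.14) and Acat2 (-0.13) had log2 fold changes at or above the median of expressed genes. Mvd (-0.26) lay below that median and did not pass.

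In the sterol branch, 4 of the 10 other genes were lower at an adjusted p under 0.10, beside 17.3% of the genes of at least 1 mean CPM. These were Cyp51, the lanosterol demethylase (log2 fold change -0.50), Hsd17b7, the ketoreductase of the demethylation complex (-0.43), Sc5d, the lathosterol desaturase (-0.40), and Ebp, the sterol isomerase (-0.36). Cyp51 went from 80.9 ± 7.42 TPM to 61.8 ± 2.74 TPM (SD, n = 3 mice each). Tm7sf2, a sterol reductase, was at -0.08. The branch thus held genes on both sides of the median of expressed genes.

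Among the genes of control, Insig2, Mbtps1 and Mbtps2 passed at an adjusted p under 0.10, which is 3 of the 9 others beside the same 17.3%. Insig2, the paralog of Insig1, had 102.2 ± 1.65 TPM at 6 months and 85.7 ± 5.15 TPM at 24 months (SD, n = 3 mice each), a log2 fold change of -0.37 (edgeR adjusted p = 0.0553). Mbtps1 (-0.32) and Mbtps2 (-0.38) encode the proteases that cut the SREBP precursor. Srebf1, the paralog of Srebf2, was at 0.06 and Nr1h2, a liver X receptor, at 0.08.

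Of the 9 uptake genes, 3 were lower at an adjusted p under 0.10, again beside 17.3% of the genes of at least 1 mean CPM. Lipa, the lysosomal lipase that frees cholesterol from its esters, had a log2 fold change of -0.51, Stard4, a sterol transfer protein, of -0.40, and Vldlr, a lipoprotein receptor, of -0.29. The receptors Scarb1 (-0.18), Lrp1 (-0.05) and Lrp8 (0.09) and the transporters Npc1 (-0.24) and Npc2 (0.07) did not pass. Under the processing alternatives and left-out mice that gave 0 calls among the 7 genes, 0 to 3 genes of the whole list of 41 were called, in place of 14. How many of all genes were called in those fits was not counted.

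**Figure D5:**
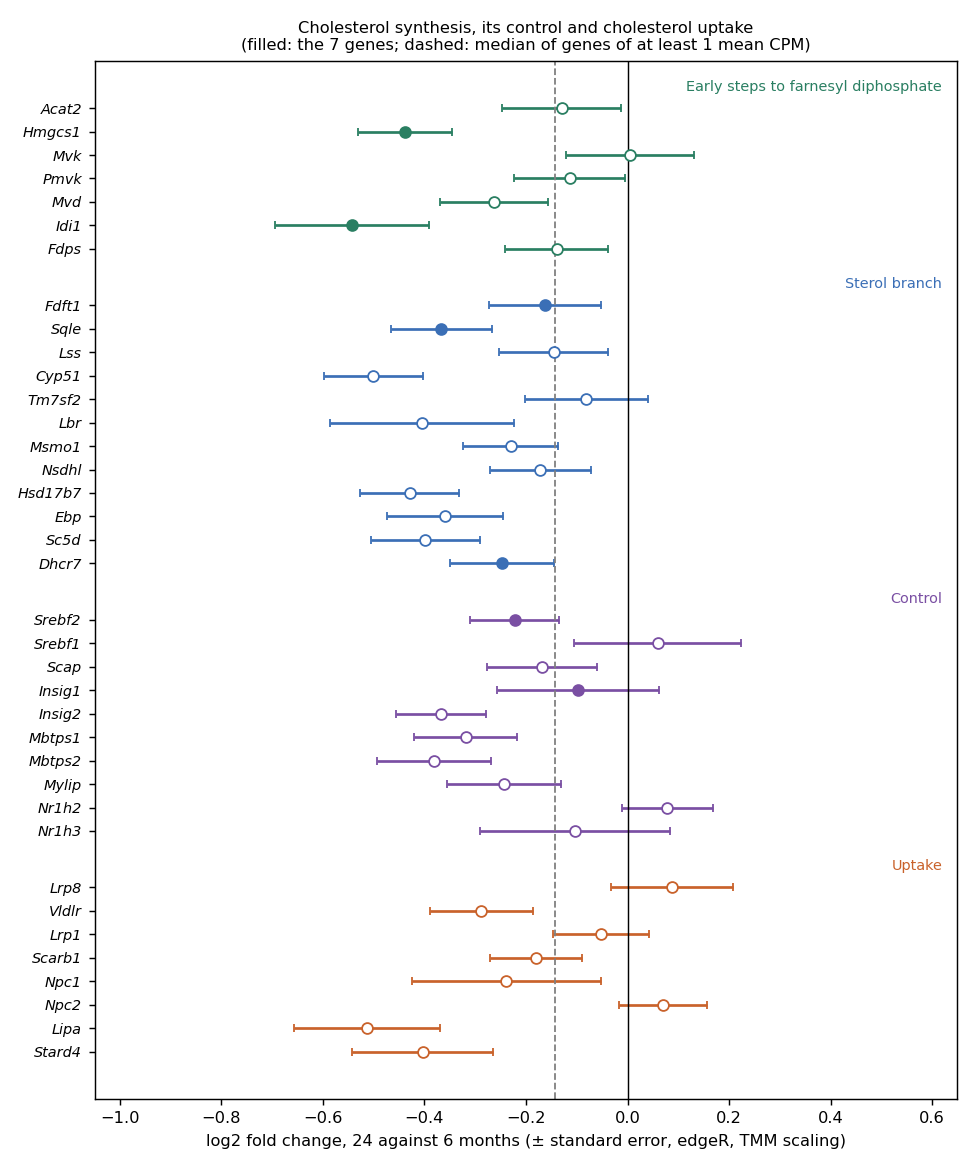
Log2 fold change of 24 against 6 months with its standard error for 37 of the 41 genes of the pathway list, in 4 groups by role, with the 7 genes filled and the median of genes of at least 1 mean CPM dashed, at -0.14. Idi1, Cyp51 and Hmgcs1 lie well left of the dashed line, while Mvk, Nr1h2, Npc2 and Lrp8 lie right of 0. The place of the line at 0 depends on the scaling and on the filter for low counts.

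The cortex holds several cell types that make or receive cholesterol, and in whole tissue fewer cells of a type and less RNA per cell cannot be told apart. The summed TPM of 5 oligodendrocyte markers was 1185 to 1880 at 6 months and 675 to 2210 at 24 months, lowest in mouse 2 and highest in mouse 5. The mean deviation of the 7 genes on log2 TPM was lowest in mouse 2, at -0.16. In mouse 5 it was -0.02, below the 0.15 and 0.18 of mice 10 and 11, whose marker sums were 1480 and 1880 TPM. The sum of 5 astrocyte markers was 777.3 to 833.1 TPM at 6 months and 844.2 to 910.4 TPM at 24 months, and that of 5 microglia markers 537.4 to 552.2 TPM and 571.5 to 615.4 TPM, so both sums were higher in every old mouse. On TMM-scaled counts, the median log2 fold change per marker, which is not a sum, was -0.16 for astrocytes and -0.07 for microglia. That of expressed genes was -0.14. In each of these 2 marker lists, 1 gene was lower and 1 higher at an unadjusted p under 0.05 in edgeR's quasi-likelihood test. The sum of 5 neuron markers was 3908 to 4527 TPM and 3136 to 4080 TPM, with overlap. Per marker, the neuron median was -0.31, with 2 lower and 0 higher at that threshold in the same test. Of the genes of at least 1 mean CPM, 26.9% were lower at it. The sums of oligodendrocyte precursors, endothelial cells, red blood cells and choroid plexus overlapped between the ages as well. The median per marker was -0.39 for the 4 of red blood cells, with 3 lower and 0 higher at that threshold. It was -0.12 for oligodendrocytes, -0.04 for endothelial cells, 0.20 for oligodendrocyte precursors and 0.32 for choroid plexus. The part of these cell types in the values of the 7 genes was not tested.

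The genes whose pattern over the 6 libraries was most like the mean of the 7 genes, among 10022 other genes of at least 10 mean CPM, were Pgam1, Zfp942, Hnrnpr, Lysmd3 and Zfp280b, with Pearson's r of 0.996 to 0.997 on log2 CPM. None of them belongs to the pathway list. The r values describe 6 libraries that share scaling and depth. Pgam1, a glycolytic mutase, had 131.8, 134.2 and 118.4 TPM at 6 months and 112.7, 120.0 and 122.0 TPM at 24 months.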

How the data were processed

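Per the labels and the methods of the study, reads were trimmed with Trim Galore 0.6.4, mapped to GRCm38 with STAR 2.7.3a and counted on exons with featureCounts (Subread 2.0.0). All deposited counts (100%) were whole, although the stated options split multi-mapped reads. TPM was computed by the authors, from counts over exonic length. Symbols come from the TPM rows and identifiers from the same rows of the counts. Positions are those of GENCODE vM21, the study having used a later release of the same assembly.

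Differential expression across all genes was computed with edgeR 4.0.16 (R 4.3.3), with TMM scaling, at least 10 counts over the 6 libraries, the quasi-likelihood test without covariates and Benjamini-Hochberg adjustment over all genes tested. The call of the study (1% FDR) was kept, and adjusted p under 0.10 and unadjusted p under 0.05 are given beside it. Alternatives used DESeq2 1.42.0, limma 3.58.1 on log2 TPM (minimum mean TPM 1), other scalings, tests and filters, and the omission of single mice. DESeq2 gave no adjusted p for 5745 genes, which stayed out of its counts. Scripts were tested on simulated data. Other steps used Python 3.11.15 with scipy 1.17.1. Nothing says more of the replicates than that each is 1 mouse.

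Depth was 29495379 to 36494240 counts per library, and the 7 genes held 202 to 17320 counts each. The 7 genes and all lists were chosen with earlier results of these data known. Genes outside the 7 were named by rule: the 8 of smallest p with an adjusted p under 0.10, the 3 lowest and 3 highest log2 fold changes, the paralogs, the uptake genes and the 5 most alike in pattern. Pmvk, Fdps, Mvk, Acat2, Mvd, Tm7sf2, Mbtps1, Ctsb and Mir33 were named after their values were seen. The values of 4 listed genes are not reported here.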

Additional observations from a re-analysis of the deposited data

How the results depend on the processing

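With scaling by library totals, with filterByExpr, a minimum mean CPM of 1, and limma on log2(TPM + 1) and on log2(TPM + 0.1), in this order and in place of the TMM scaling and count minimum, the median log2 fold change of the 7 genes was -0.056, -0.13, -0.093, -0.13 and -0.13, against -0.25 otherwise, and that of the pathway genes -0.052, -0.13, -0.088, -0.12 and -0.13, against -0.24. In the same order, the number of the 7 genes with an adjusted p under 0.10 was 0 in each in place of 3, the number lower with an unadjusted p under 0.05 was 2, 3, 2, 3 and 3 in place of 5, and the number of pathway genes with an adjusted p under 0.10 was 2, 3, 0, 0 and 0 in place of 14. Without a filter on low counts, 9 pathway genes and 3 of the 7 genes were called at an adjusted p under 0.10. The number lower with an unadjusted p under 0.05 was 3 without that filter, with the likelihood ratio test, with the exact test and with DESeq2. For these alternatives the share of all genes called at the same thresholds was not counted. These numbers thus cannot be set against it. The log2 fold change of Fdft1 turned to 0.032 with library totals. That of Insig1 turned to 0.092 with library totals, 0.012 with filterByExpr, 0.054 with the minimum mean CPM, and 0.018 with both pseudocounts on TPM. DESeq2's size factors in edgeR changed no call of the 7 genes and no count by over 1.5 times. Relative to the median of expressed genes, the median of the 7 genes stayed between -0.105 and -0.093 on the log2 scale over these alternatives.

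With each mouse left out in turn, the number of the 7 genes with an adjusted p under 0.10 ran from 0 to 4, the number lower with an unadjusted p under 0.05 from 2 to 5, the number of pathway genes with an adjusted p under 0.10 from 0 to 17 (0 without mice 10, 11, 2 or 4, 6 without mouse 17 and 17 without mouse 5), the median of the 7 genes from -0.30 to -0.17, and that of the pathway genes from -0.26 to -0.17. As above, the share of all genes called with a mouse left out was not counted. Insig1 ran from -0.25 to 0.070 and turned its sign when mouse 10 (6 months) or mouse 2 (24 months) was left out. At 1% FDR, 0 of the 7 genes passed under each of the alternatives run. No paired analysis was possible because the mice of both ages share no number. Each standard error was computed from the log2 fold change and the statistic of the quasi-likelihood test, which shares spread between genes. At 0.087 to 0.16 on the log2 scale, these errors limit what 3 mice per age can resolve.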
